A study of Mus musculus with 12 samples.

Results

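Glycolysis and glycogen genes were described as a list of 35 genes: carriers of glucose and lactate, the enzymes from hexokinase to lactate dehydrogenase, and the genes of glycogen synthesis and breakdown. The genes were matched by symbol. All 35 were among the 20194 genes of the muscle RNA table, and 83 of the 38244 open-chromatin peaks of the myotube table were annotated to 29 of them. The series compared muscle of C57BL/6 mice given PBS with muscle of mice carrying Lewis lung carcinoma (LLC), a transplanted tumour that causes cachexia, the wasting of muscle and fat in cancer. LLC mice received 500000 cells under the skin, tissue of both groups was taken on day 22, and polyA RNA was sequenced from 3 libraries per group. Age, sex and the muscle sampled are not given in the labels. Open chromatin was measured by ATAC-seq, in which a transposase cuts accessible DNA, in myotubes of C2C12, a single mouse myoblast line (genotype C3H per the labels) that was differentiated in horse serum. Of these cultures, 3 libraries stayed in control medium and 3 received, for 24 hours, medium taken from Colon-26 (C26), a colon carcinoma line of the mouse. The 2 assays therefore differ in tumour, exposure and cells, and no value of one was tested against the other. Whether each library is its own animal or culture is not stated in the labels (C2C12 wells were seeded in triplicate), so p-values measure only the spread between these libraries, which may be technical.

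Glycolysis splits glucose into pyruvate and yields ATP without oxygen, and fast muscle fibres rely on it during bursts of contraction. Glucose enters through GLUT carriers, hexokinase traps it, phosphofructokinase sets the pace, and lactate dehydrogenase with the monocarboxylate carriers disposes of the end product. Glycogen is the local glucose store: glycogenin and glycogen synthase build it, and phosphorylase, switched on by phosphorylase kinase, releases it at the start of exercise. Many steps have a form typical of adult muscle (Pfkm, Pgam2, Eno3, Pygm) beside forms that most other cells use (Pfkl, Pgam1, Eno1).

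The promoters of 4 members are printed here. Among promoter peaks and peaks called on the deposited values, these members had the largest differences between myotube media. The difference was at an intron peak for Pfkfb3, Fbp2 and Hk1 and at the promoter peak for Eno1. They come from RefSeq on GRCm38.p6 and run 5′ to 3′ along the gene's strand from 250 bases before the start to 50 after it. Capitals mark ACGTG, the core recognised by hypoxia-inducible factors and contained in the E-box CACGTG, and CAGCTG, an E-box of the myogenic factors, both searched on both strands. CACGTG holds ACGTG on either strand and counted as 2 matches.
Pfkfb3 (chr2:11502041-11502340, minus strand): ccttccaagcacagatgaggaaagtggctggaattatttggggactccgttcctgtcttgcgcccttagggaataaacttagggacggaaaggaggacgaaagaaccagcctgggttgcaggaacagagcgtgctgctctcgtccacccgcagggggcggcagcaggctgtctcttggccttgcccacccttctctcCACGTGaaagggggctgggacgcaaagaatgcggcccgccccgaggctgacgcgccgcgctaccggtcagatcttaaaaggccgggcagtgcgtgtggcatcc
Fbp2 (chr13:62858351-62858650, minus strand): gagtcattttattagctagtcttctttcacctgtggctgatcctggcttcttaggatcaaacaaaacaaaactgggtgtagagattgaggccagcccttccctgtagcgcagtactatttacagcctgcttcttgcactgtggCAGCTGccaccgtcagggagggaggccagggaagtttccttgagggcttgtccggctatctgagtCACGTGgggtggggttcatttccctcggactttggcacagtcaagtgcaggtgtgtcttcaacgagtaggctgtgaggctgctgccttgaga
Hk1 (chr10:62340372-62340671, minus strand): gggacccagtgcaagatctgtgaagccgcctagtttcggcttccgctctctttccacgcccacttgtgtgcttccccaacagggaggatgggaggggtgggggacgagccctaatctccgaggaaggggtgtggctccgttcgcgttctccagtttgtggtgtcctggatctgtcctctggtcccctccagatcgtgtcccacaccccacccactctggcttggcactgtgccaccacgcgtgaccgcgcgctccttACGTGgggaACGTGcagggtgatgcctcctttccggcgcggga
Eno1 (chr4:150236947-150237246, plus strand): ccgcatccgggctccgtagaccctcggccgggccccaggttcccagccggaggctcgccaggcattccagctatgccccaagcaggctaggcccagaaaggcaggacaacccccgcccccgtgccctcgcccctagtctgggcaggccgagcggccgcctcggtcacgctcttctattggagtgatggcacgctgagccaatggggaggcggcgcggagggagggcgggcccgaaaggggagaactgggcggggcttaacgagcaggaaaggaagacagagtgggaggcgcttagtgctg
The Pfkfb3 promoter held 1 CACGTG, Fbp2 held 1 CACGTG and 1 CAGCTG, Hk1 held ACGTG at 2 separate positions, and Eno1 held neither motif. The whole 300 bases lay within the promoter peak of Pfkfb3, Hk1 and Eno1, and 0 bases of the Fbp2 promoter lay in a peak.

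RNA libraries held 17.0 to 20.1 M tags (M, 10 to the power of 6) and ATAC libraries 10.1 to 18.2 M. All 7 genes of a muscle fibre list were present, with summed levels of 32937 to 38619 FPKM (fragments per kilobase and per M mapped fragments) in PBS and 37728 to 43352 in LLC. Other cell types were unequal between libraries and within both groups. The sum of 8 neutrophil and marrow genes was 132, 6558 and 12485 FPKM in PBS 1 to 3 and 6218, 11014 and 192 in LLC 1 to 3, and the sum of 7 erythroid genes ran from 1026 (PBS 1) to 30372 (PBS 3). None of the 15 genes of these lists was at 0 in any library. All 8 genes of a slow fibre list had the higher mean in LLC, with sums of 131 to 568 in PBS and 338 to 1193 in LLC. The sums of 8 fast fibre genes overlapped between groups, at 29673 to 34062 and 31252 to 36044. Of these genes, 6 had the higher mean in LLC. The others, Casq1 (1069 to 1607 in PBS, 752 to 1006 in LLC) and Pvalb (5602 to 8579 and 4604 to 5499), were lower in LLC without overlap. Endothelial genes (5) summed to 77.5 to 95.4 in PBS and 170 to 211 in LLC, with Kdr alone lower in LLC on average. Tendon genes (6) summed to 272 to 408 and 38.0 to 238, and bone genes (4) to 159 to 461 and 36.5 to 111. These sums did not overlap between groups, but Kdr, Scx, Thbs4, Bglap, Ibsp and Dmp1 did. In PBS 1 the bone sum was almost all Col1a1 (159), with Bglap, Ibsp and Dmp1 at 0, 0.197 and 0.075. Fat cell genes (5) were 239 to 426 in PBS and 235 to 240 in LLC 1 and 2 and reached 1196 in LLC 3, and epidermal genes (7) were 2.21 to 144 and 77.7 to 1510. The part of these cells in the members' differences was not tested. In bulk tissue fewer cells of a type and less RNA per cell cannot be told apart. In the myotube table, Des and Ttn, genes of differentiated muscle, had a promoter peak, Myog, Myh3, Ckm and Acta1 had none, and no peak lay at Ptprc or Alb. Peaks held 27.0% of the tags of control 1, against 13.1% and 17.9% in controls 2 and 3 and 12.0% to 13.5% after C26 medium.

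In muscle the list held some of the most abundant transcripts of the tissue, and none of its genes passed the test between LLC and PBS. The members summed to 17148 to 19761 FPKM in PBS and 18709 to 20490 in LLC, which was 3.55% to 5.66% of all FPKM in PBS and 4.51% to 5.32% in LLC. Of 35 members, 34 reached a mean of 1 FPKM and were tested among 12981 genes. In limma on log2(FPKM + 1) with Benjamini-Hochberg adjustment, 0 members passed an adjusted p of 0.05, where 0.0% of all genes did. With edgeR's quasi-likelihood test on recovered reads the members called were again 0, and the share of all genes was 0.0%. An unadjusted limma p under 0.05 was seen for 2 members (Fbp2 and Slc16a3) and for 991 genes in all, and an unadjusted edgeR p under 0.05 for Slc16a3 and Pfkp. The smallest adjusted limma p among members was 0.427, and that of all genes was 0.0573.

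The members' differences lay on both sides of 0. The log2 difference was above 0 in 20 members and below 0 in 14, with a median of 0.08, against 0.01 over all genes tested, 53.0% of which were above 0. After median-of-ratios scaling 19 were above and 15 below 0, with a median of 0.04. Gpi1, Pfkp, Fbp2 and Aldoa had all 3 LLC values above all 3 PBS values, 4 of 34 tested members, and 9.5% of all genes did so. Slc16a3 alone had all LLC values below all PBS values, and 3.94% of all genes did so. Leaving out PBS 3 moved the members' median to -0.06, so its sign rested on that library.

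**Figure D1:**
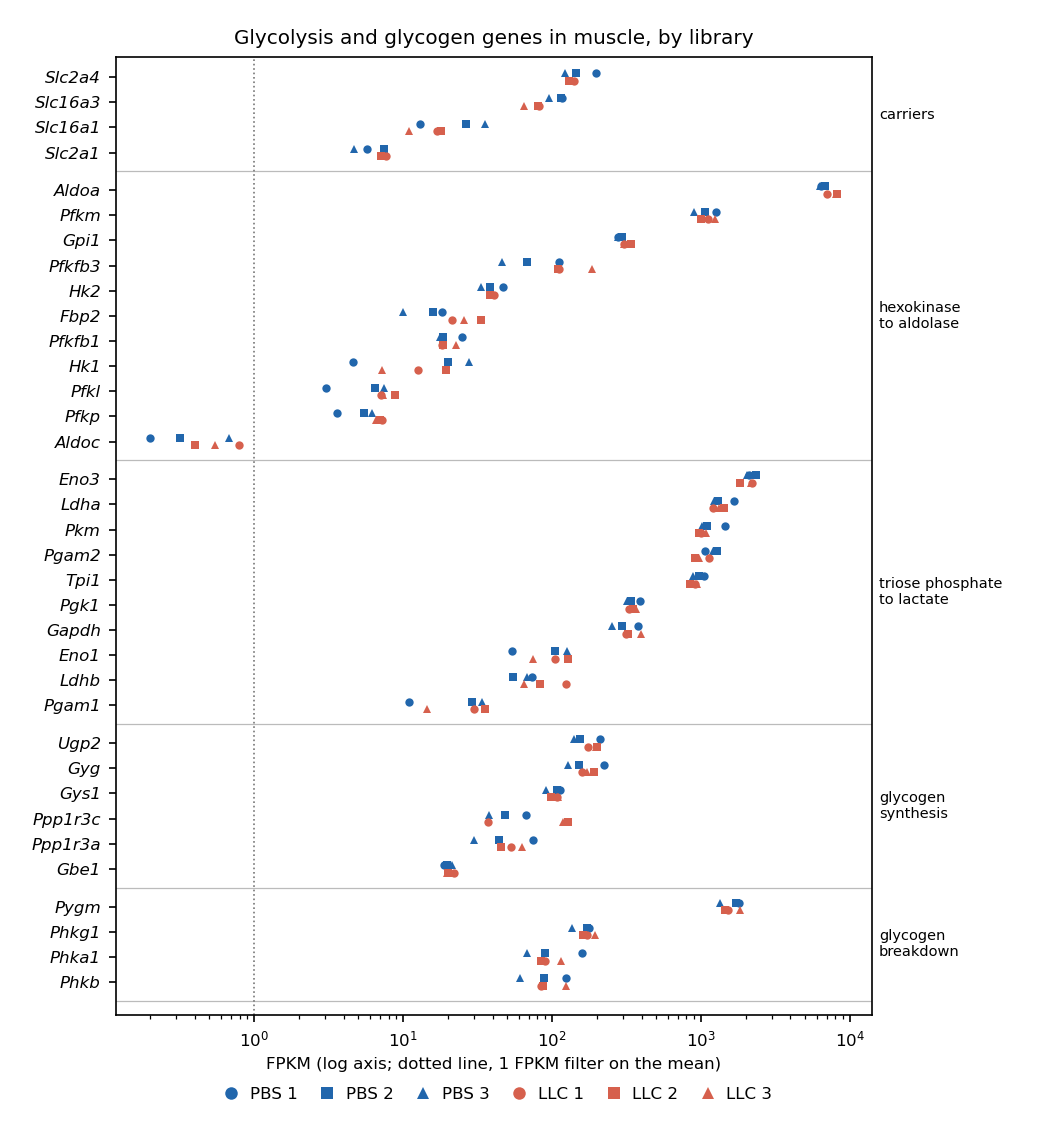
FPKM of the 35 members in each muscle library on a log axis, grouped by role and sorted by mean level within each role, with PBS libraries in blue and LLC libraries in red. Points of both groups lie within one another for most genes, Fbp2 and Slc16a3 separate, and Hk1, Pgam1 and Pfkl spread widely within PBS.

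Levels, which FPKM expresses per transcript length, spanned 4 orders of magnitude. Aldoa, the aldolase of muscle and red cells, was highest at a mean of 7143 FPKM over the 6 libraries. Eno3, the muscle enolase, followed at 2125, Pygm, the muscle phosphorylase, at 1617 and Ldha at 1368. Pkm, Pfkm and Pgam2 came next at 1107, 1097 and 1096. Aldoa and Eno3 stood clear of their lower neighbours in every library, whereas the ranges of Pygm, Ldha, Pkm, Pfkm and Pgam2 overlapped in this order. Slc2a4 stood at 145, Gys1 at 105, Hk2 at 39.5 and Slc2a1 at 6.63 FPKM. Aldoc, the brain aldolase, stood at 0.489 and was the 1 member not tested. Reads of both strands were counted, and Hk1, Pfkp, Tpi1, Ugp2 and Phkg1 overlap a gene on the other strand by 8 to 9260 bp, whose reads cannot be told apart from theirs.

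Among the carriers, Slc16a3 (chr11:120949067-120959000), the MCT4 carrier through which glycolytic fibres export lactate, had the smallest p of all members. It stood at 117, 115 and 96.3 FPKM in PBS and 82.3, 80.3 and 64.9 in LLC, so the highest LLC library was under the lowest PBS library. The log2 difference was -0.53 (SE 0.15, n = 3 and 3, adjusted p = 0.427). Slc16a1, the MCT1 carrier found in oxidative fibres and many other cells, stood at 13.1, 26.6 and 35.8 in PBS and 16.8, 18.0 and 11.02 in LLC. Its log2 difference was -0.60 (SE 0.39, adjusted p = 0.937), and the groups overlapped through PBS 1. Slc2a4, the insulin-responsive glucose carrier GLUT4, was 198, 145 and 122 in PBS and 142, 131 and 133 in LLC. Slc2a1, the basal carrier GLUT1, was 5.70, 7.43 and 4.70 in PBS and 7.71, 7.15 and 7.12 in LLC, with a log2 difference of 0.28 (SE 0.17). The LLC values of both glucose carriers were close together and lay within or beside a wider PBS range.

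From hexokinase to aldolase, 7 of 10 tested members had a log2 difference above 0, with a median of 0.20. Fbp2 (chr13:62836884-62858400), the muscle fructose-bisphosphatase that opposes phosphofructokinase, had the smallest p. It stood at 18.3, 15.9 and 10.0 FPKM in PBS and 21.5, 33.3 and 25.8 in LLC, without overlap. This was a log2 difference of 0.84 (SE 0.26, n = 3 and 3, adjusted p = 0.506). Pfkfb3 (chr2:11471431-11553929) makes fructose-2,6-bisphosphate, the strongest activator of phosphofructokinase. It was 112, 67.9 and 46.3 in PBS and 111, 109 and 187 in LLC. PBS 1 reached the level of LLC 1 and 2, and the log2 difference was 0.88 (SE 0.38, adjusted p = 0.689). Pfkfb1, another gene of the same family, overlapped between groups at 17.8 to 24.9 FPKM in PBS and 18.2 to 22.5 in LLC.

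The enzymes of the upper steps had smaller differences. Gpi1, phosphoglucose isomerase, was 277, 296 and 276 in PBS and 304, 340 and 303 in LLC, with a log2 difference of 0.16 (SE 0.11). Aldoa was 6430, 6824 and 6292 in PBS and 7007, 8246 and 8062 in LLC, with a log2 difference of 0.25 (SE 0.15, adjusted p = 0.912). Both kept their groups apart, and neither difference passed the test. Pfkp, the platelet-type phosphofructokinase, did the same at a low level, with 3.62, 5.51 and 6.23 in PBS and 7.23, 6.95 and 6.57 in LLC. Pfkm, the muscle phosphofructokinase and by far the main form, was 1264, 1063 and 902 in PBS and 1115, 997 and 1239 in LLC. Hk2, the insulin-responsive hexokinase of muscle, differed least of all tested members of this stretch, with 46.9, 38.6 and 33.6 in PBS and 40.8, 38.2 and 38.7 in LLC.

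From triose phosphate to lactate, 4 of 10 members were above 0 and 6 below, with a median log2 difference of -0.04 and no member whose groups stood apart. Pgam2, the muscle phosphoglycerate mutase, was 1066, 1286 and 1211 FPKM in PBS and 1129, 912 and 973 in LLC, a log2 difference of -0.24 (SE 0.15). Ldhb, the heart-type lactate dehydrogenase typical of oxidative fibres, was 73.4, 54.6 and 68.4 in PBS and 124, 83.4 and 64.8 in LLC, a log2 difference of 0.42 (SE 0.26). The slow fibre sums were 568, 131 and 148 FPKM in PBS 1 to 3 and 1193, 679 and 338 in LLC 1 to 3. Both Ldhb and the slow fibre sum were highest in LLC 1 and lowest in PBS 2. The part of fibre type in the Ldhb values was not tested. Pkm, pyruvate kinase, was 1445, 1097 and 1020 in PBS and 1010, 978 and 1092 in LLC. Gapdh and Pgk1, often used as reference genes, were 253 to 378 and 322 to 391 in PBS and 314 to 399 and 332 to 366 in LLC. Tpi1 and Eno3 overlapped between groups as well. Ldha, the muscle-type lactate dehydrogenase, overlapped at 1237 to 1683 and 1209 to 1443.

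All 6 genes of glycogen synthesis had a log2 difference above 0, with a median of 0.15, and 0 of them passed the test. After median-of-ratios scaling 5 were above 0 and 1, Gys1, below. With edgeR and after quantile normalization Gyg and Gys1 were below 0, and without PBS 3 the split was 3 above and 3 below (Gyg, Gys1 and Ppp1r3a). Ppp1r3c, the PTG subunit that targets protein phosphatase to glycogen, had the largest difference and the widest spread: 67.2, 48.5 and 37.8 FPKM in PBS and 37.4, 129 and 119 in LLC. LLC 2 and 3 were above every PBS library and LLC 1 was below all of them, so the log2 difference of 0.73 had an SE of 0.52 (adjusted p = 0.97). Ppp1r3a, the muscle targeting subunit, was 74.4, 44.2 and 29.9 in PBS and 52.8, 45.5 and 63.2 in LLC. Ugp2, which makes the UDP-glucose that feeds synthesis, was 209, 155 and 140 in PBS and 174, 201 and 198 in LLC. Gyg, the glycogenin primer, was 128 to 223 in PBS and 159 to 190 in LLC. Gys1, muscle glycogen synthase, and Gbe1, the branching enzyme, were among the least variable members, with coefficients of variation over the 6 libraries of 7.46% and 6.06%.

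The 4 genes of glycogen breakdown were split, 2 above and 2 below 0. Pygm was 1818, 1733 and 1345 FPKM in PBS and 1530, 1446 and 1831 in LLC. Of phosphorylase kinase, which couples calcium to glycogen breakdown, the catalytic subunit Phkg1 was 176, 172 and 136 in PBS and 173, 161 and 196 in LLC. The regulatory subunits varied more within PBS than between groups. Phka1 was 160, 89.5 and 67.7 in PBS and 89.2, 85.0 and 115 in LLC. Phkb was 125, 88.4 and 60.9 in PBS and 84.4, 87.7 and 124 in LLC. All 4 genes were lowest in PBS 3.

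Among the members compared, the form typical of muscle made up most of each isozyme set in every library. As shares of summed FPKM, Aldoa was over 99.9% of the aldolases in all 6 libraries, Pfkm 98.4% to 99.5% of the phosphofructokinases and Pgam2 96.3% to 99.0% of the mutases. Eno3 was 93.4% to 97.5% of Eno3 and Eno1, Slc2a4 94.8% to 97.2% of Slc2a4 and Slc2a1, and Ldha 90.7% to 96.0% of Ldha and Ldhb. Genes off the list were not counted. One of them, the glucose carrier Slc2a3, stood at 3.93, 17.7 and 27.1 FPKM in PBS and 14.4, 32.8 and 3.05 in LLC. These shares are descriptions and were not tested. The lowest Ldha share was that of LLC 1, and the mean share was 95.5% ± 0.67 (SD, n = 3) in PBS and 93.5% ± 2.46 in LLC. Hexokinase was the least settled set: Hk2 was 91.1%, 66.0% and 54.7% of Hk1 and Hk2 in PBS 1 to 3 and 76.5%, 66.3% and 84.2% in LLC 1 to 3. Slc16a3 likewise ran from 72.9% to 90.0% of Slc16a3 and Slc16a1 within PBS.

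Several broadly expressed isozymes varied more within groups than between them and were lowest where marrow genes were lowest. Hk1 was 4.61, 19.9 and 27.9 FPKM in PBS and 12.5, 19.4 and 7.26 in LLC, so its lowest values lay in PBS 1 and LLC 3, the libraries with the lowest marrow sums. Pgam1 did the same with 11, 28.8 and 33.9 in PBS and 30.0, 35.3 and 14.4 in LLC. Eno1 was 53.9, 104 and 126 in PBS and 105, 129 and 74.8 in LLC. Pfkl, the liver-type phosphofructokinase, was 3.04 in PBS 1 and 6.51 to 8.89 in the other 5 libraries, LLC 3 included. Hk3, a hexokinase of blood cells that is not on the list, went from 1.01 in PBS 1 and 1.42 in LLC 3 to 28.1 in PBS 3.

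Other members had the opposite order. Of the 35, 15 were highest in PBS 1 and 19 lowest in PBS 3, the libraries with the lowest and the highest marrow sum. Pfkm, Phka1, Phkb and Ppp1r3a, chosen after their values were seen, were among both. Other muscle forms had no such order: Pgam2 and Eno3 were highest in PBS 2 and Aldoa in LLC 2. The part of marrow or blood RNA in these values was not tested. Without PBS 1 and LLC 3, which leaves 2 libraries per group, 0 members passed the test. With these 4 libraries the log2 difference was 0.96 for Pfkfb3 (adjusted p = 0.236), -0.79 for Slc16a1 (adjusted p = 0.239), 1.02 for Fbp2 (adjusted p = 0.272) and 0.72 for Ldhb (adjusted p = 0.293). That of Slc16a3 was -0.37 (adjusted p = 0.334).

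**Figure D2:**
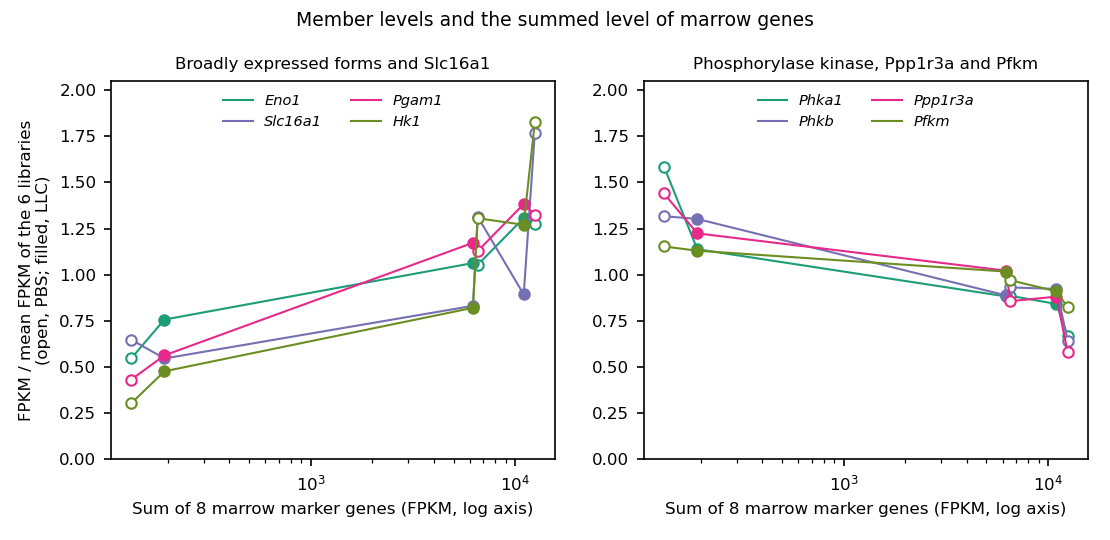
FPKM of 8 members, divided by the gene's mean over the 6 muscle libraries, against the summed FPKM of 8 marrow marker genes on a log axis; open points are PBS and filled points LLC. Eno1, Slc16a1, Pgam1 and Hk1 (left) are lowest in the 2 libraries with marrow sums of 132 and 192 FPKM, PBS 1 and LLC 3, while Phka1, Phkb, Ppp1r3a and Pfkm (right) are highest there.

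Of 61 other genes of glucose and glycogen use, 60 were in the table and 52 were tested. None passed the test; 22 had a log2 difference above and 30 below 0, with a median of -0.04. An unadjusted limma p under 0.05 was seen for 3 above 0 and 3 below, and for 991 of all 12981 genes tested. Txnip, which is induced by glucose and lowers glucose uptake, was 281, 284 and 215 FPKM in PBS and 458, 496 and 465 in LLC, a log2 difference of 0.87 (SE 0.15, adjusted p = 0.199). Hif1a, a hypoxia-inducible factor with many glycolytic targets, was 10.98, 10.9 and 9.83 in PBS and 17.6, 15.9 and 19.5 in LLC, a log2 difference of 0.69 (SE 0.12, adjusted p = 0.199). Tbc1d4, which gates GLUT4 release, was 2.63 to 4.99 in PBS and 6.16 to 15.9 in LLC. Below 0 were Slc16a10, a carrier of aromatic amino acids (14.2, 18.2 and 18.7 in PBS, 8.95, 10.6 and 8.64 in LLC), the calmodulin gene Calm3 (158 to 210 and 122 to 136) and Prkag3, the AMPK subunit of glycolytic muscle (25.1 to 78.5 and 16.7 to 22.9). These 6 genes, taken for their unadjusted limma p under 0.05, had no overlap between groups. Of the 52 tested, 4 had all LLC values above all PBS values and 5 had them all below, against 9.5% and 3.94% of all genes.

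In myotubes the deposited values were lower after C26 medium at most member peaks, as over the table as a whole. The 83 member peaks were 207 to 1499 bp wide. They comprised 36 in introns, 23 intergenic, 17 in promoters, 4 in exons and 3 at transcript ends by the deposited annotation, and 55 of them were in the peak lists of all 6 libraries. Hk2 had most, with 8 peaks, followed by Pfkp, Pfkfb3 and Slc16a1 with 7 each. Pfkfb1, Aldoc, Ldhb, Pygm, Phkg1 and Ppp1r3a had none. Of the 83, 82 reached a mean of 5 tags per 10 M and were tested. In these values 70 had a log2 difference (C26 medium minus control) below 0 and 12 above, with a median of -0.60, against -0.54 over all peaks.

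The limma test on these values called 1 member peak higher, where 1.15% of all peaks were, and 2 lower, where 1.88% were. Control 1, with its larger share of tags in peaks, was the highest library at 79 of the 82. Median-of-ratios scaling, which sets the typical peak equal between libraries, divided control 1 by 1.79, controls 2 and 3 by 0.84 and 1.15, and the C26 libraries by 0.78 to 0.88, and it brought the median over all peaks to -0.02. On that scale 13 member peaks were called higher and 13 lower, 15.9% of those tested in each direction, against 17.1% of all peaks higher and 12.7% lower. The members' shares were thus close to those of the table. The members' median was -0.07. Of these 26 calls, 25 were also made by edgeR and 22 after quantile normalization, and 21 were made again when control 1 was left out. The 5 not made again were 2 intergenic peaks of Slc16a1, 1 of Ugp2, 1 of Eno1 and the peak at the upstream start of Pfkfb3 described below, with adjusted p of 0.081 to 0.230. Which scaling is right for these libraries was not tested, and values on both are given for the peaks below. Adjusted p-values are from limma on the rescaled values unless stated otherwise.

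The largest rise was at Pfkfb3 (chr2:11482508-11483029 in mm10), a peak in intron 10 by the deposited annotation, 19.3 kb from an internal start of the gene. As deposited it held 12.5, 3.04 and 4.94 tags per 10 M in controls 1 to 3 and 26.1, 35.8 and 26.6 after C26 medium. It was in none of the control peak lists and in all 3 C26 lists. The log2 difference was 2.14 (SE 0.44, adjusted p = 0.00035) as deposited and 2.64 (SE 0.27, adjusted p = 4.7e-11) after rescaling, from 4.96 ± 1.79 to 35.8 ± 8.79 (SD, n = 3 each). As deposited, leaving out C26 replicate 2 gave a log2 difference of 2.00 with an adjusted p of 0.064. The peak at that internal start, which covers the printed promoter, went the other way: 118, 122 and 117 rescaled tags in control and 81.9, 87.4 and 84.2 after C26 medium, a log2 difference of -0.49 (SE 0.09, adjusted p = 5.6e-05). As deposited that promoter fell short of the threshold, with an adjusted p of 0.068. Another of the gene's 7 peaks, within 1000 bp of the upstream start, that of the transcript in the RNA table, was called higher on the rescaled values (log2 0.42, adjusted p = 0.032), and its groups overlapped.

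Pgam2 had a single peak, 17.0 kb upstream (chr11:5820556-5821033) in an ERVK long terminal repeat, and it rose after rescaling. It held 29.9, 16.2 and 22.2 tags per 10 M in control and 58.5, 44.8 and 53.8 after C26 medium. The groups did not overlap on either scale. The log2 difference was 1.20 as deposited (adjusted p = 0.060) and 1.72 rescaled (SE 0.15, adjusted p = 6.1e-13). At Hk2 an intron 1 peak in an ORR1C2 repeat (chr6:82760846-82761445) was 18.0, 16.8 and 18.9 in control and 37.5, 36.6 and 49.7 after C26 medium on the rescaled values, a log2 difference of 1.15 (SE 0.18, adjusted p = 9.9e-07). As deposited its groups overlapped, with 32.2 in control 1 and 28.5 in C26 replicate 2, and it was not called. Of the 9 tested member peaks in repeats, 5 were called higher and 1 lower on the rescaled values. Of all repeat peaks, 24.7% were called higher and 7.72% lower, so repeat peaks rose more often than they fell there as well. Such peaks share sequence with other copies of the repeat, and how reads with several matches were placed is not given in the sources used here.

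Gbe1, Gapdh and Slc2a1 each had a peak away from the start that rose on the rescaled values and was not called as deposited. The Gbe1 peak (chr16:70351759-70352196) lay in intron 1 and was 26.5, 17.2 and 23.1 in control and 49.2, 49.5 and 42.3 after C26 medium, a log2 difference of 1.06 (SE 0.16, adjusted p = 1.1e-06). The Gapdh peak (chr6:125161054-125161772), at the transcript end, was 63.6, 51.9 and 62.6 in control and 97.8, 98.1 and 91.4 after C26 medium, a log2 difference of 0.69 (adjusted p = 1.2e-06). The Slc2a1 peak (chr4:119125618-119126227), in intron 2 and a MER20 repeat, went from 59.4 ± 5.30 to 90.2 ± 4.86 (SD, n = 3 each). As deposited, control 1 was above every C26 library at all 3 peaks, and controls 2 and 3 were below every one. Other rises on the rescaled values were at Slc16a1, Pfkm, Pfkp, Gyg, Eno1 and Ugp2, with log2 differences of 0.34 to 0.93.

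Hk1 and Fbp2 carried the peaks that were called lower on both scales. The Hk1 peak (chr10:62320323-62321086), in intron 4, was 155, 75.6 and 94.9 tags per 10 M in control and 43.7, 43.0 and 51.9 after C26 medium. The log2 difference was -1.15 (SE 0.36, adjusted p = 0.047) as deposited and -0.63 (SE 0.11, adjusted p = 7.7e-06) rescaled. The only peak of Fbp2 (chr13:62856115-62856645), in intron 1 and 2.0 kb from the start, was 44.7, 19.6 and 20.3 in control and 8.58, 5.21 and 10.4 after C26 medium. Its log2 difference was -1.63 (SE 0.43, adjusted p = 0.013) as deposited and -1.13 (SE 0.26, adjusted p = 0.00066) rescaled. As deposited, leaving out control 3 or any 1 C26 library took both peaks above the threshold, with adjusted p of 0.117 to 0.463. Farther from a start, 3 intergenic peaks of Slc16a1 and 1 of Gpi1 were also called lower on the rescaled values, with log2 differences of -0.64 to -0.34. The Hk1 peak over the printed promoter was not called, with log2 differences of -0.57 as deposited (adjusted p = 0.210) and -0.04 rescaled (adjusted p = 0.764). That promoter lies inside the transcript measured in the RNA (chr10:62268855-62379908, minus strand), so its start is an internal one.

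**Figure D3:**
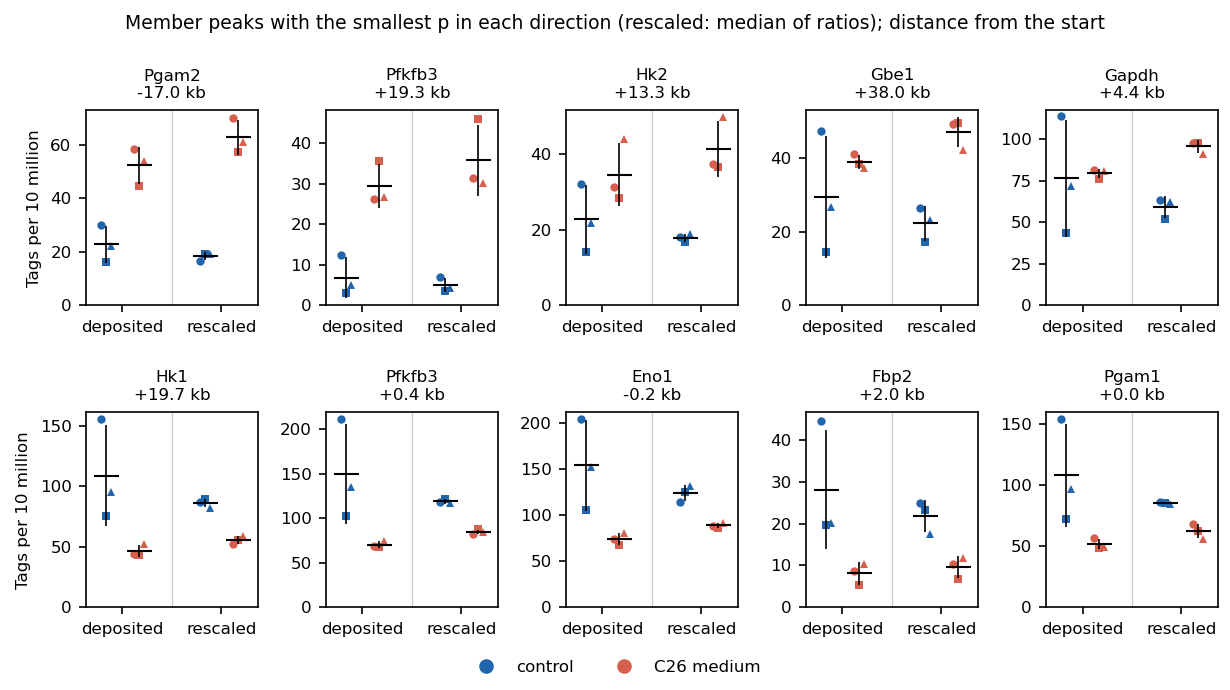
Tags per 10 M at the 5 member peaks with the smallest p in each direction, in each library (points; circle, square and triangle are replicates 1 to 3) with mean and SD (bars), as deposited (left of each panel) and after median-of-ratios scaling (right). As deposited control 1 (blue circle) stands above the other controls in every panel, and after rescaling the groups do not overlap in any of the 10.

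Near starts the rescaled values went down more often than up, among the members as over the whole table. Of the 26 peaks within 1000 bp of an annotated start, 7 were called lower and 1 higher, with a median log2 difference of -0.11. Of all such peaks, 21.2% were called lower and 2.5% higher, with a median of -0.16. Of the 56 tested peaks farther away, 6 were called lower and 12 higher, with a median of -0.01, against 9.28% lower and 23% higher over the table and a median of 0.09. The difference between near and far peaks was not tested. The 7 lower peaks were the promoters of Pfkfb3, Eno1, Pgam1, Gys1, Slc16a1, Aldoa and Gapdh. Eno1 (chr4:150236626-150237453) was 114, 125 and 132 rescaled tags in control and 88.5, 86.5 and 91.7 after C26 medium, a log2 difference of -0.47 (SE 0.09, adjusted p = 1.0e-04). Pgam1 (chr19:41911538-41912207) went from 85.5 ± 1.02 to 62.5 ± 6.05 (SD, n = 3 each), a log2 difference of -0.45. Gys1 went from 130 ± 8.32 to 98.9 ± 10.1, a log2 difference of -0.39, and Aldoa from 148 ± 6.54 to 122 ± 7.72, a log2 difference of -0.28. Gapdh overlapped between groups, at 131 to 174 and 113 to 144, and its call was lost after quantile normalization (adjusted p = 0.143) and with edgeR (adjusted p = 0.055). As deposited, none of the promoter peaks was called, although all 24 were below 0.

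**Figure D4:**
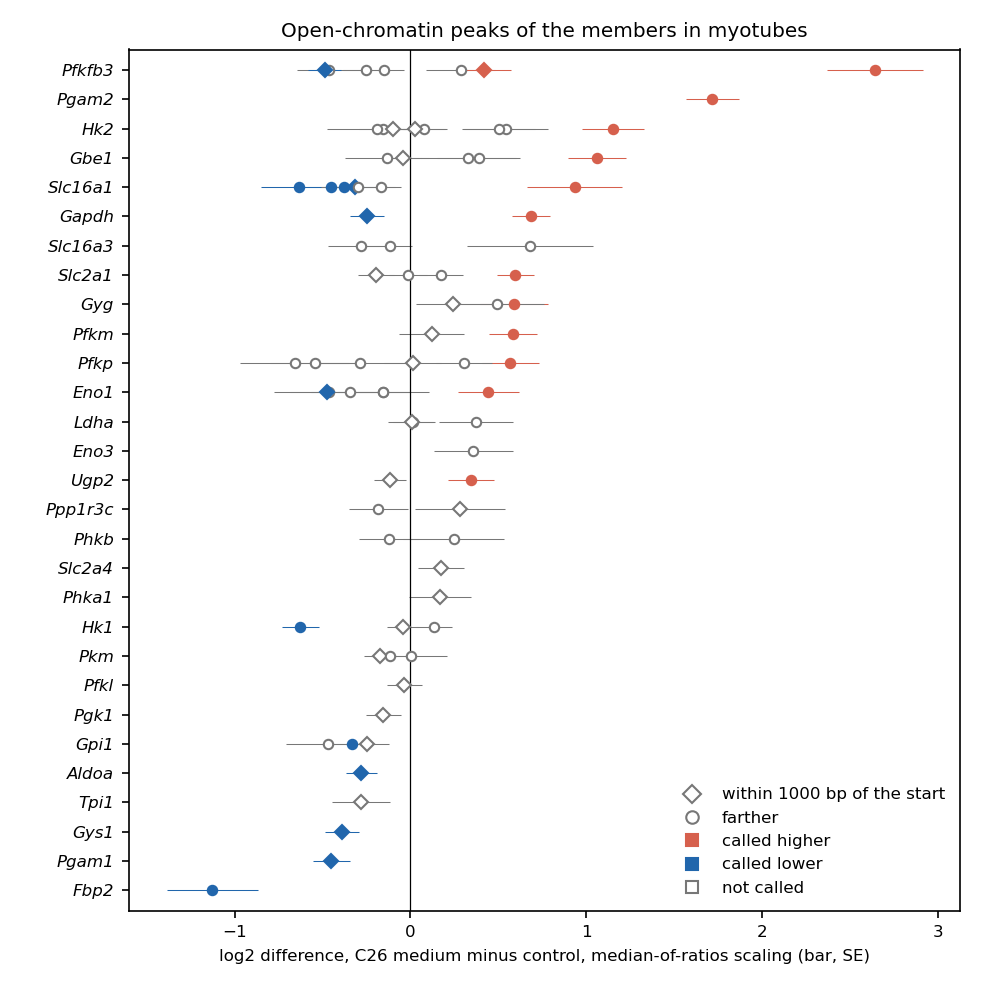
Log2 difference (C26 medium minus control) of the 82 tested peaks, by member, after median-of-ratios scaling, with the SE as a bar; diamonds lie within 1000 bp of an annotated start and circles farther away, and filled symbols passed an adjusted p of 0.05. The rises of Pfkfb3 (2.64), Pgam2 (1.72), Hk2 (1.15) and Gbe1 (1.06) are circles, and most filled blue symbols at promoters lie between -0.2 and -0.5.

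A promoter peak, within 1000 bp of the start, was found for 24 of the 35 members (68.6%), against 69.0% of all genes with at least 1 FPKM in the muscle RNA. Within 3000 bp the count was 27, with Slc16a3, Fbp2 and Eno3 added. The members without one included 6 genes typical of adult muscle: Pygm, Pgam2, Eno3, Phkg1, Ppp1r3a and Fbp2. Pygm, Pgam2 and Eno3 were 3 of the 7 most abundant members in muscle. Pfkm, another muscle form, had a promoter peak of 25.3 tags per 10 M on average, and 20.2% of all promoter peaks were lower. That peak (chr15:98108181-98108734) lay upstream of the transcript measured in the RNA (chr15:98112060-98132447, plus strand), so its start is another one. Muscle glycogen synthase (Gys1), the GLUT4 gene Slc2a4 and Phka1 also had a promoter peak. Pkm, Gapdh and Aldoa had the strongest promoter peaks of the list, at 150, 148 and 145. The other members without a promoter peak were Pfkfb1, Aldoc, Ldhb, Slc16a3 and Phkb.

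Promoters with and without a peak differed in sequence. Of the 34 members with a RefSeq promoter sequence, those with a promoter peak had an observed-to-expected CpG ratio of 0.72 at the median (0.42 to 1.06, n = 23) and those without had 0.16 (0.05 to 0.94, n = 11). The median over all 32851 promoters was 0.38. The 3 promoters without a peak and with a high ratio were Phkb (0.94), Slc16a3 (0.93) and Ldhb (0.70). Muscle level did not follow the ratio, since Pygm (0.16), Eno3 (0.13) and Pgam2 (0.05) were as abundant as Ldha (0.88) and Pkm (0.85). These are descriptions of 34 promoters with no test.

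**Figure D5:**
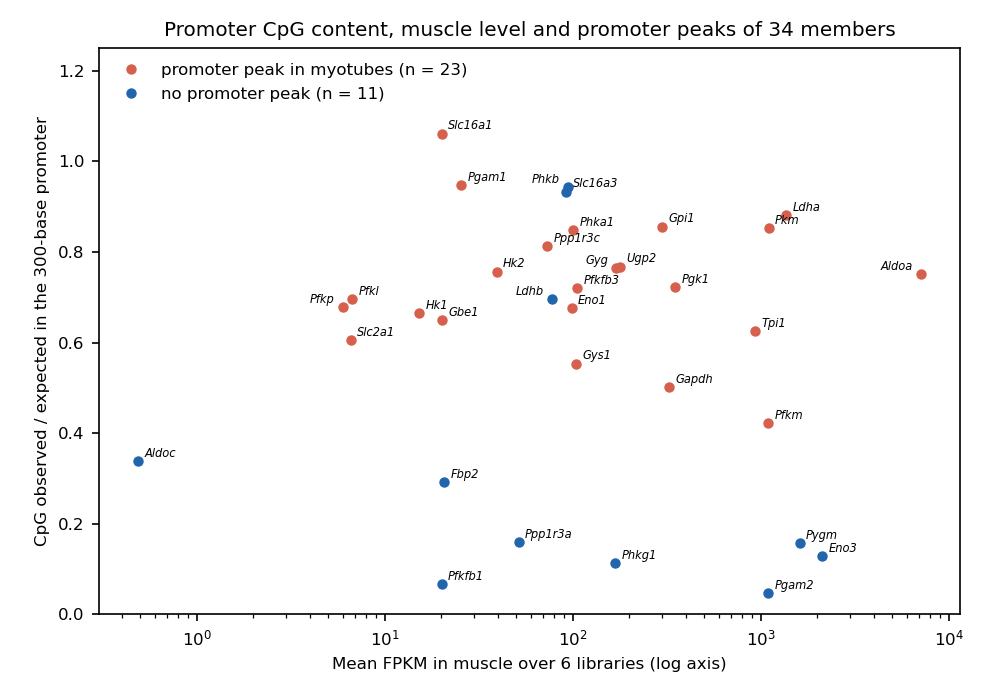
Observed-to-expected CpG ratio of the 300-base promoter of 34 members against their mean FPKM over the 6 muscle libraries (log axis), with members that have a promoter peak in myotubes in red and those without in blue. Every member with a peak has a ratio of at least 0.42, and the muscle forms Pygm, Eno3 and Pgam2 lie at high FPKM and a ratio under 0.2.

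ACGTG was present in the promoters of 18 of 34 members, against 19.6% of all 32851 promoters of the same length. Ldha held it most often, with 5 matches on both strands together, followed by Slc16a1 and Ppp1r3c with 3 each. CAGCTG was present in 11 of 34, against 16.3% of all promoters, with 2 matches in Gys1 and Pygm. ACGTG contains a CpG, and the 23 members with a promoter peak had a higher median CpG ratio than all promoters, so the shares are not on equal terms. Of the 7 promoters whose peaks were called lower on the rescaled values, Pfkfb3, Slc16a1, Aldoa, Gapdh and Pgam1 held ACGTG, and Eno1 and Gys1 did not. A match describes these letters and not a bound factor.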

How the data were processed

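The RNA values are FPKM per gene that the authors made with HOMER from RefSeq exons in mm10, per the file headers. Each ATAC value is the signal of a merged peak, which the authors deposited as tags scaled to a library of 10 M, per the file headers. HISAT2, HOMER, DESeq2, Bowtie2 and MACS2 are named without versions or roles in the submitters' processing notes, with the builds GRCm38 and mm10. RNA column names were tied to samples through their titles, and 0 sample columns were left over.

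Values were tested as log2(value + 1) in R 4.3.3 with limma 3.58.1 (trend, two-sided, Benjamini-Hochberg over all features, threshold 0.05), keeping genes that averaged 1 FPKM or more and peaks that averaged 5 or more. This scale understates changes of low genes. Values were whole steps of 0.5 tag for 100% of those checked (tolerance 0.1), and the reads recovered were tested with edgeR 4.0.16. Fits were tested on simulated data. The main fits treated the libraries as unpaired.

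The members and gene lists were chosen with earlier results of these data known. Per role, up to 3 members with the smallest p are given in full, as are most members of the isozyme sets. Eno3, Ldha, Pfkl and Aldoc are given as means, ranges or shares. For the ATAC the peaks chosen were promoter peaks, called peaks and the 5 smallest p in each direction, and some are given only in counts or ranges. Other members named were chosen after values were seen. Promoter sequences were matched by symbol for 34 of 35 members. Plots used Python 3.11.15 and matplotlib 3.10.9. Alternatives were other pseudocounts, filters, scalings, no trend, a replicate block, edgeR and leaving out libraries.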

Additional observations from a re-analysis of the deposited data

How the results depend on the processing

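In the RNA, 0 members were called under every alternative run, including the replicate block, edgeR and each library left out, and the members' median ran from -0.062 (without PBS 3) to 0.128 (without PBS 1) when 1 library was left out. In the ATAC, 3 member peaks were called as deposited, 0 with a mean of at least 20 tags, 6 without the trend, and 26 each with median-of-ratios scaling, quantile normalization, edgeR and median-of-ratios scaling with the replicate block. Median-of-ratios scaling without control 1, added after seeing the data, called 22. Leaving out 1 library gave 0 (C26 replicate 2) to 49 (control 2) calls as deposited, 11 without control 1 and 1 without control 3, C26 replicate 1 or C26 replicate 3. The members' median of -0.60 became -0.072 under median-of-ratios scaling, with or without the block, -0.066 under quantile normalization, -0.067 with edgeR and -0.090 under median-of-ratios scaling without control 1. It ran from -0.85 (without control 2) to -0.33 (without control 1) with 1 library left out. The replicate block on the deposited values called 3 member peaks. Same-numbered libraries correlated at -0.09, 0.60 and -0.60 in the RNA and at -0.01, 0.01 and -0.02 in the ATAC. The values were centred on the mean of each group first, so these correlations cannot settle whether same-numbered libraries were prepared together. Among promoter peaks whose deposited log2 difference was at least 1 SE from 0, 5 turned from below to above 0, all to values near 0. Pfkp did so at 0.012 under median-of-ratios scaling, also with the block, 0.087 on that scale without control 1, and 0.0028 with edgeR. Ldha did so at 0.0079 under median-of-ratios scaling, also with the block, and 0.037 with edgeR. Under quantile normalization it was Hk1 (0.059), Pfkl (0.042) and Gbe1 (0.042). All 5 were called lower on the deposited values without control 2. Under median-of-ratios scaling 7 of the 24 promoter peaks were above 0. Besides Pfkp and Ldha these were Ppp1r3c (0.28), Gyg (0.24), Slc2a4 (0.18), Phka1 (0.17) and Pfkm (0.12), whose deposited values were within 1 SE of 0.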
